A study of Homo sapiens with 9 samples.

Results

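The genes described here are the heterogeneous nuclear ribonucleoproteins (hnRNPs) and a few related RNA-binding proteins, 33 symbols chosen by name and found on 34 of the 61853 rows of the deposited table. The symbol MATR3 stands on 2 rows, and the row ENSG00000015479.20 was used for it. RNA depleted of ribosomal RNA was measured in 293T, a human line derived from embryonic kidney that expresses the large T antigen of SV40. Per the labels, the cells had been given the shRNA DIS3-sh1, with the genotype given as a DIS3 knockdown, or a Scramble shRNA, with the genotype given as WT, and 3 libraries of each group were analysed. DIS3 is an exonuclease and endonuclease of the RNA exosome, the complex that degrades RNA from its 3' end. A group given DIS3-sh2 is named in the labels and is not analysed here, so every result rests on 1 shRNA and carries no check with another sequence.

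hnRNPs are abundant, mostly nuclear proteins that coat new transcripts and act in splicing, export, translation and turnover of RNA. They bind RNA through RNA recognition motifs, KH domains and glycine-rich stretches, often at short repeated sequences such as G runs, poly(C), CA repeats or uridine tracts. Many belong to small families of paralogs, and several regulate the splicing of their own or a paralog's transcript. The level of such an mRNA is what was measured here, not the protein or the form into which it was spliced.

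Nearly all of these mRNAs were lower in DIS3-sh1 cells. Of the 33 genes, all of which passed the filter on low counts, 29 fell and 3 did not pass the test. PCBP2 rose, although on one other scale, TPM over all annotated rows, it was lower. Among all 19591 tested genes 32.6% were called lower and 34.5% higher, 67% in either direction, and among the 13805 tested protein-coding genes 38.7% were called lower and 36.2% higher, 74.9% in either direction. The log2 fold changes of the 33 genes, which are DIS3-sh1 over Scramble throughout, ran from -1.19 to 0.19 with a median of -0.55, whereas the median of all tested genes was 0.02 and that of tested coding genes -0.01. The fall was at least 2-fold for 2 genes, against 3.94% of all tested genes and 2.98% of coding ones, between a log2 change of 0.5 and 1 for 19, and smaller for 8. For 28 of the genes every DIS3-sh1 library lay below every Scramble library, a pattern seen in 34.2% of tested genes and 39.8% of coding ones. For 1 every DIS3-sh1 library lay above, against 35.6% of tested genes and 36.7% of coding ones.

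**Figure D1:**
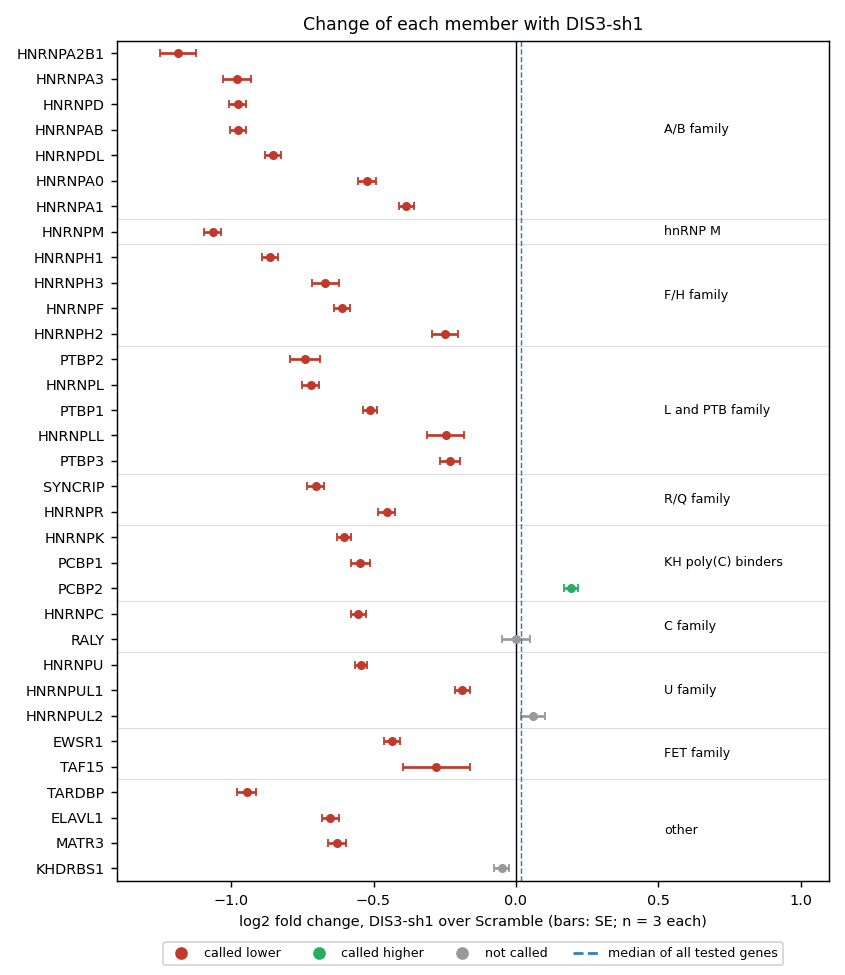
Log2 fold change of each of the 33 genes (x axis, bars are SE, 3 libraries a group), arranged by protein family. The 29 red points lie to the left of 0, PCBP2 at 0.19 is the green point to its right (lower in TPM over all annotated rows), and RALY, HNRNPUL2 and KHDRBS1 are grey.

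**Figure D2:**
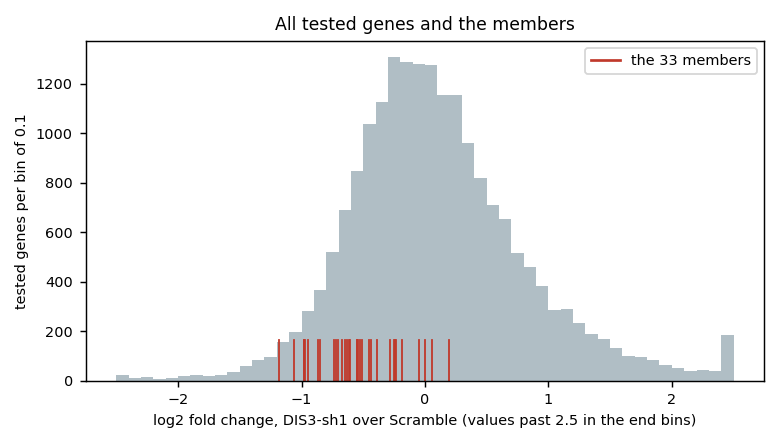
Histogram of the log2 fold changes of all 19591 tested genes (y axis, genes per bin), with red ticks for the 33 genes. The histogram is centred near its median of 0.02, and most ticks stand in its left part, the lowest at -1.19.

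DIS3 itself, the target of the shRNA, measured 26.6, 27.8 and 27.9 CPM (counts scaled to a common library total) in DIS3-sh1 and 175.8, 186.1 and 177.1 CPM in Scramble, a log2 fold change of -2.71. Library totals were 19800892 to 21100677 counts in DIS3-sh1 and 20722775 to 23532148 counts in Scramble, and the 33 genes rested on 268 to 37451 counts in a library. The 9 markers listed for this cell line summed to 1583 to 1609 CPM in DIS3-sh1 and 1529 to 1559 CPM in Scramble, most of it VIM, but 5 were called higher and 4 lower. KRT8 measured 31.8 to 33.4 CPM in DIS3-sh1 and 4.48 to 4.89 CPM in Scramble, ENO2 18.4 to 18.7 and 3.70 to 4.11 CPM, EN2 18.4 to 18.9 and 49.4 to 54.7 CPM, and INA 21.2 to 22.2 and 48.2 to 51.2 CPM. Of 12 markers of other cell types, CD3E, COL1A2, HBB and INS were at 0 in every library, and the 12 summed to 24.1 to 27.9 CPM in DIS3-sh1 and 14.5 to 15.5 CPM in Scramble, nearly all of it COL1A1. Small structural RNA, with nuclear ribosomal RNA genes and their pseudogenes included, took 8.25% to 9.38% of counts in DIS3-sh1 and 4.95% to 5.15% in Scramble. Mitochondrial genes took 2.78%, 3.42% and 3.47% in DIS3-sh1, lowest in replicate 1, and 2.20% to 2.23% in Scramble. With small structural RNA, ribosomal and mitochondrial genes removed before scaling, 30 of the 33 genes were called lower and 1 higher, with a median of -0.56. DIS3-sh1 replicate 1 stood apart from the others of its group: its counts differed from theirs by a chi-square of 5.71 and 5.80 per degree of freedom, against 1.61 between replicates 2 and 3. It was the lowest of the DIS3-sh1 libraries for 26 of the 33 genes, a larger share than the 36.6% of all tested genes and 37.3% of coding ones. Without it 28 of the 33 genes were called lower and 1 higher, with a median of -0.58. That median is the value of PCBP1, whereas with all libraries the median was the value of HNRNPC (-0.55, and -0.52 without replicate 1). Of the genes called lower with all libraries, only PCBP1, HNRNPA0, PTBP1 and HNRNPL fell more without replicate 1. The others fell less, for example HNRNPA3 (-0.91, from -0.98) and HNRNPH3 (-0.60, from -0.67).

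Together the 34 rows summed to 9357, 9788 and 9836 CPM in DIS3-sh1 and to 14615, 14726 and 14676 CPM in Scramble. As a share of all deposited counts this was 0.942%, 0.991% and 0.994% in DIS3-sh1, against 1.44%, 1.45% and 1.45% in Scramble. The CPM are scaled by TMM, which sets the bulk of genes near no change, so a change in the total RNA of a cell cannot be seen. In bulk RNA, a lower level in every cell and a larger loss in some of them cannot be told apart.

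The start regions of 4 genes are shown because these genes mark the ends of the range: HNRNPA2B1 and HNRNPM fell most, PCBP2 rose, and PCBP1 is the paralog of PCBP2 that fell. Each runs 5' to 3' on the gene's strand from 250 bases before to 50 bases after the RefSeq start (GRCh38.p14). Capitals mark matches, on either strand, to GGGCGG (bound by SP1 and KLF proteins), CCAAT (NF-Y), CACGTG (E-box proteins such as MYC), TATAAA (the TATA box) or CCGGAAG (ETS proteins), overlapping matches counted. The regions are chr7:26200697-26200996 on the minus strand for HNRNPA2B1, and on the plus strand chr19:8444725-8445024 for HNRNPM, chr2:70087227-70087526 for PCBP1 and chr12:53451852-53452151 for PCBP2.
HNRNPA2B1: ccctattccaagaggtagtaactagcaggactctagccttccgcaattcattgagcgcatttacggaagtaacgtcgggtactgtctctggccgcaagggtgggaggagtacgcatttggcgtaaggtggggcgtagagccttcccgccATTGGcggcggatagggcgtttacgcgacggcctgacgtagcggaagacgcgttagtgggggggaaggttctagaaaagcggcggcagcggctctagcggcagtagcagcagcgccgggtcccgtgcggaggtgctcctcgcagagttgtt
HNRNPM: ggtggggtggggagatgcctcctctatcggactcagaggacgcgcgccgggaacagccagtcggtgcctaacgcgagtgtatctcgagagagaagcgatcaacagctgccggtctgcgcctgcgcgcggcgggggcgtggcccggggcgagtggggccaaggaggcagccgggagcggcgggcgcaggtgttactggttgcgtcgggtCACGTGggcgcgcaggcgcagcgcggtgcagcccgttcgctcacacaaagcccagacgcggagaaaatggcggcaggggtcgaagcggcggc
PCBP1: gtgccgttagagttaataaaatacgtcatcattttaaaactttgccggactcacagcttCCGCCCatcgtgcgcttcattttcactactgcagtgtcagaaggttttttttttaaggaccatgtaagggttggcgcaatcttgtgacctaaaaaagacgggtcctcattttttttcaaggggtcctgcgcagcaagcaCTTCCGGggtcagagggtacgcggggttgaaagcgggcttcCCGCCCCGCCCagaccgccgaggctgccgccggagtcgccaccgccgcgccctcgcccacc
PCBP2: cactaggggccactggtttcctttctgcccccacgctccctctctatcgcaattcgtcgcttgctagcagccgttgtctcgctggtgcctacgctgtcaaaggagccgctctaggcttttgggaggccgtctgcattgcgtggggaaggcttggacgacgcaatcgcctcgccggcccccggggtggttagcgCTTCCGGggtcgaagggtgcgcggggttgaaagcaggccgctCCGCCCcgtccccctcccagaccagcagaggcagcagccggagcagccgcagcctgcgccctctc
A match is a run of letters, not a bound site. HNRNPA2B1 has 1 CCAAT match, HNRNPM has 1 CACGTG match, and PCBP1 and PCBP2 have 3 and 1 matches to GGGCGG and 1 match each to CCGGAAG.

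Start regions were found for 30 of the 33 genes, with 43 regions in all, and none was found for HNRNPA1, ELAVL1 and TAF15. The motifs were picked with the results known. At least 1 region held GGGCGG for 26 of the 30 genes (86.7%, against 48.3% of all 27305 genes with a region and 77.7% of the 10922 tested coding genes among them). CCAAT was held by 18 genes (60%, against 39.7% and 43.7%) and CACGTG by 9 (30%, against 8.78% and 12.7%). CCGGAAG was held by 6 (20%, against 12.2% and 21.8%), TATAAA by 3 (10%, against 14.0% and 8.60%) and the CGCG element, a palindrome bound by BANP, by 3, HNRNPH3, HNRNPK and MATR3 (10%, against 0.505% and 1.01%). The median GC content was 66.3% over the 43 regions and 64.7% over those of the tested coding genes. The windows of different genes can overlap where promoters are shared, and the shares were not tested.

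The A/B family fell as a whole, 7 of 7 genes, with a median of -0.97. HNRNPA2B1, which encodes the A2 and B1 proteins of RNA transport and splicing, is a minus-strand gene of chromosome 7, from 26173057 to 26201529 (hg38). It measured 549, 628 and 641 CPM in DIS3-sh1 against 1358, 1399 and 1381 CPM in Scramble. This was the deepest fall of the 33 genes, to 43.9% of the Scramble level (log2 fold change -1.19 ± 0.06, SE, edgeR quasi-likelihood test, adjusted p = 1.79e-05), and DIS3-sh1 replicate 1 was the lowest library. Without that library the log2 fold change was -1.12 ± 0.02. HNRNPA3, a close relative that also acts in RNA transport, measured 233, 264 and 270.3 CPM against 509, 516 and 488 CPM, a log2 fold change of -0.98 ± 0.05 with no overlap between the groups.

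Next to these stood the genes of the AU-rich element binders. HNRNPD, known as AUF1 for its binding to AU-rich elements and its role in mRNA decay, measured 261, 276 and 289.6 CPM in DIS3-sh1 against 553, 534 and 539.8 CPM in Scramble (log2 fold change -0.98 ± 0.03, adjusted p = 7.35e-23). Its paralog HNRNPDL, near it on the same strand of chromosome 4, had 175, 181 and 184 CPM against 323, 327 and 326 CPM (-0.85 ± 0.03). HNRNPAB, a protein of RNA transport and transcription, had the highest level per length of the 33 genes in Scramble. It measured 239, 258 and 254 CPM in DIS3-sh1 and 485, 496 and 496 CPM in Scramble, a log2 fold change of -0.97 ± 0.03. In all 3 the groups were far apart, with the DIS3-sh1 libraries near one another.

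The other two members of the family fell less. HNRNPA1, the best known splicing repressor among hnRNPs, measured 473, 507 and 501 CPM in DIS3-sh1 against 648, 655 and 631 CPM in Scramble, a log2 fold change of -0.39 ± 0.03 (adjusted p = 4.63e-14). HNRNPA0, which binds AU-rich elements in the mRNAs of signalling proteins, measured 151, 143 and 149 CPM against 212, 214 and 211 CPM (-0.52 ± 0.03). Within each library the log2 ratio of HNRNPA1 to HNRNPA2B1 was -0.21, -0.31 and -0.36 in DIS3-sh1 and -1.07, -1.09 and -1.13 in Scramble. On the rows of these genes alone, HNRNPA2B1 counts were thus closer to HNRNPA1 counts in DIS3-sh1, by a difference of 0.80 on the log2 scale. Copies of HNRNPA1, described below, held a further 723 CPM in DIS3-sh1 and 926 CPM in Scramble. With these added the levels need not be closer, and that ratio was not computed.

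HNRNPA1 and HNRNPA3 have many processed copies in the genome, and their reads may be split with them. The table lists 133 pseudogene rows of the 33 genes, 78 of them with counts, and 6 retrocopies of HNRNPA1 and HNRNPC. The copies of HNRNPA1 together held 723 CPM in DIS3-sh1 and 926 CPM in Scramble, which was 59.4% and 59.0% of the HNRNPA1 total with copies. HNRNPA1P7, the highest of them, measured 352 and 441 CPM, and 69.5% of its 50-base windows were also found in HNRNPA1 transcripts. With the copies added the log2 fold change of HNRNPA1 was -0.37 ± 0.02. HNRNPA3P6 held 138 CPM in DIS3-sh1 and 261 CPM in Scramble with 76.6% of windows shared, and with its copies HNRNPA3 had a log2 fold change of -0.96 ± 0.05. The copies of HNRNPC, HNRNPL and HNRNPK held at most 7.16% of their totals.

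HNRNPM, a splicing regulator that binds GU-rich sequence, was the other gene past 2-fold. It lies on chromosome 19 at 8444767 to 8489114 and measured 190.0, 203 and 204 CPM in DIS3-sh1 against 415, 422 and 413 CPM in Scramble. The groups were far apart, with DIS3-sh1 at 47.8% of the Scramble level (log2 fold change -1.06 ± 0.03, adjusted p = 4.70e-24).

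**Figure D3:**
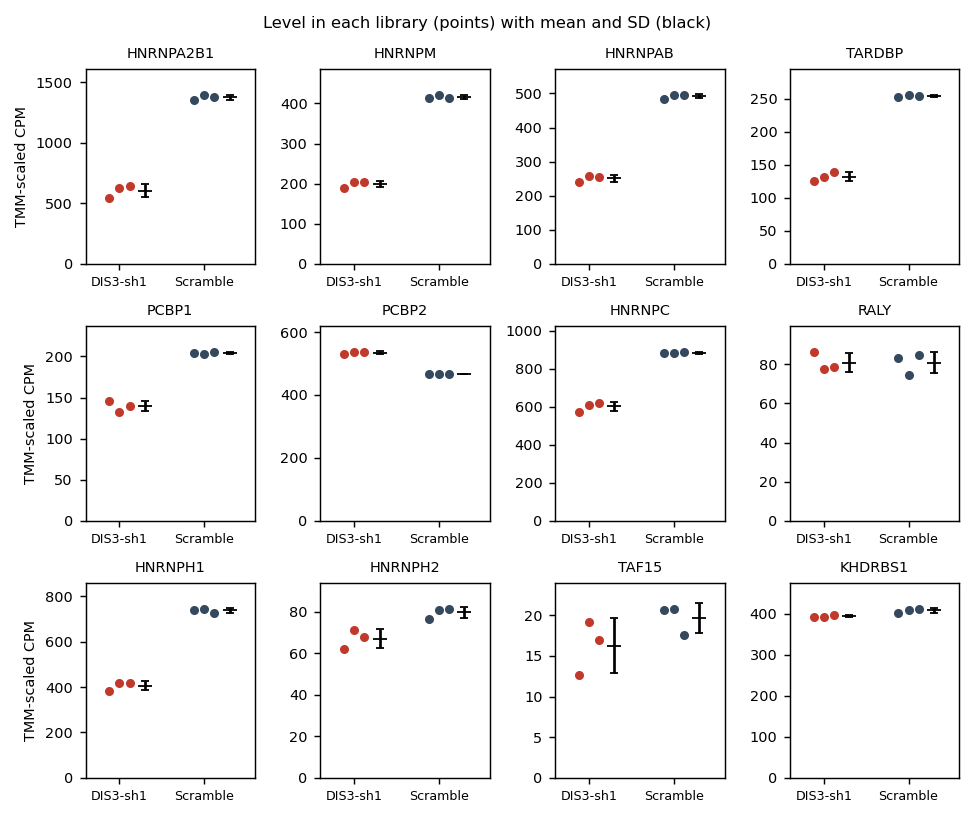
TMM-scaled CPM of 12 of the genes in each library (coloured points, DIS3-sh1 left and Scramble right), with the mean and SD in black; each y axis starts at 0. HNRNPA2B1, HNRNPM, HNRNPAB and TARDBP separate widely, PCBP2 is higher in DIS3-sh1 (lower in TPM over all annotated rows), and RALY and TAF15 overlap between the groups.

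The F/H family, whose proteins bind G runs near splice sites, fell in 4 of 4 genes but unevenly. HNRNPH1 measured 382, 416 and 419 CPM in DIS3-sh1 against 742, 746 and 726 CPM in Scramble, a log2 fold change of -0.86 ± 0.03. HNRNPH3 measured 151, 172 and 179 CPM against 261, 271 and 265 CPM (-0.67 ± 0.05). HNRNPF was the most even of the 33 genes in DIS3-sh1, at 185, 184 and 183 CPM, against 283, 280.2 and 281 CPM in Scramble (-0.61 ± 0.03). HNRNPH2, the X-linked paralog of HNRNPH1, fell least, with 62.2, 71.0 and 67.8 CPM against 76.5, 80.9 and 81.4 CPM (-0.25 ± 0.05, adjusted p = 2.81e-05). A read-through row that runs from RPL36A into HNRNPH2 on the same strand measured 48.0 CPM in DIS3-sh1 and 45.7 CPM in Scramble, and with its reads added the log2 fold change of HNRNPH2 was -0.12 ± 0.04. The log2 ratio of HNRNPH1 to HNRNPH2 was 2.62, 2.55 and 2.63 in DIS3-sh1 and 3.28, 3.20 and 3.16 in Scramble, a difference of -0.61 with no overlap.

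All 5 genes of the L and PTB family, which bind CA repeats and pyrimidine tracts, fell. PTBP1, the general polypyrimidine tract binding protein, measured 422, 413 and 416 CPM in DIS3-sh1 against 596, 582 and 607 CPM in Scramble (log2 fold change -0.51 ± 0.02). PTBP2, its neuronal paralog, whose transcript PTBP1 is known to send to decay by exon skipping, measured 40.1, 47.8 and 44.1 CPM against 72.5, 74.5 and 73.4 CPM (-0.74 ± 0.05). PTBP3, the third paralog, measured 154, 158 and 171 CPM against 183, 191 and 192 CPM (-0.23 ± 0.04). So the 2 paralogs of PTBP1 lay on either side of it: the log2 ratio of PTBP1 to PTBP2 differed by 0.23 ± 0.09 (SE), DIS3-sh1 minus Scramble, and that of PTBP1 to PTBP3 by -0.28 ± 0.06. HNRNPL, the CA-repeat binder, measured 258, 243 and 238 CPM against 403, 404 and 412 CPM (-0.72 ± 0.03). HNRNPLL, its paralog known from the splicing of CD45 in lymphocytes, measured 33.3, 37.1 and 40.7 CPM against 40.3, 45.2 and 46.5 CPM (-0.25 ± 0.07, adjusted p = 0.00141). For HNRNPLL the highest DIS3-sh1 library lay above the lowest Scramble library.

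In the R/Q family both genes fell. SYNCRIP, or hnRNP Q, an mRNA-binding protein of translation and transport, measured 172, 180.1 and 181 CPM in DIS3-sh1 against 284, 291 and 292 CPM in Scramble (log2 fold change -0.70 ± 0.03). A row without a gene name on the same strand, ENSG00000271793.2, overlaps it and changed by -0.43, and with its reads added SYNCRIP stood at -0.58 ± 0.03. HNRNPR measured 319, 355 and 342 CPM against 460.4, 467 and 465 CPM (-0.45 ± 0.03). The libraries of each group were again apart, and the log2 ratio of HNRNPR to SYNCRIP was higher in DIS3-sh1, by 0.25 ± 0.03.

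The KH domain proteins that bind poly(C) were the family whose genes moved in both directions. HNRNPK, which acts from transcription to translation and lies on chromosome 9 at 83968083 to 83980616, measured 582, 601 and 591 CPM in DIS3-sh1 against 902, 901 and 893 CPM in Scramble (log2 fold change -0.60 ± 0.02, adjusted p = 1.88e-20). PCBP1, an intronless gene whose product also delivers iron to enzymes and ferritin, lies on chromosome 2 at 70087454 to 70089203. It measured 146, 133 and 139.8 CPM against 204, 203 and 206 CPM (-0.55 ± 0.03, adjusted p = 3.30e-15).

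PCBP2 was the only one of the 33 genes to rise on the TMM scale. It lies on chromosome 12 at 53452102 to 53481162 and measured 529.9, 537 and 536 CPM in DIS3-sh1 against 467, 468 and 468 CPM in Scramble. Means were 535 ± 4.10 CPM in DIS3-sh1 and 467 ± 0.605 CPM in Scramble (SD, n = 3 each). The rise was small, to 114% of the Scramble level (log2 fold change 0.19 ± 0.02, adjusted p = 1.97e-08), and the libraries of each group lay close together. An unnamed transcript row on the same strand, ENSG00000257379.1, has 69.0% of its windows in PCBP2 and measured 266 CPM in DIS3-sh1 and 229.5 CPM in Scramble (0.21 ± 0.03). With it and a short overlapping row added, PCBP2 had a log2 fold change of 0.20 ± 0.02. In TPM over all annotated rows, which divides counts by length before scaling, and where the median of tested genes was -0.30, PCBP2 was lower in DIS3-sh1, at 117 ± 4.01 TPM against 127 ± 1.30 TPM in Scramble.

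PCBP1 and PCBP2 had no 50-base window in common, so no stretch of that length matches both exactly. The log2 ratio of PCBP1 to PCBP2 was -1.86, -2.02 and -1.94 in DIS3-sh1 and -1.20, -1.21 and -1.18 in Scramble, a difference of -0.74 ± 0.05 (SE). PCBP1 is known to have arisen as a retrocopy of a PCBP2 transcript. The start regions printed above share a stretch that begins with the CCGGAAG match on its other strand, shown in capitals, and 32 of its 36 bases are identical without gaps.
PCBP1: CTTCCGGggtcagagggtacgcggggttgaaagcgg
PCBP2: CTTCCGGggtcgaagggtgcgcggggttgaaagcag
The longest run shared by the 2 regions has 15 bases. The stretch begins 52 bases before the start of PCBP1 and 57 bases before that of PCBP2.

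The C family was split as well. HNRNPC, which binds uridine tracts and keeps Alu-derived exons out of mRNA, measured 573, 611 and 621 CPM in DIS3-sh1 against 880, 881 and 889 CPM in Scramble, a log2 fold change of -0.55 ± 0.03 (adjusted p = 3.18e-18). RALY, its paralog, measured 86.5, 77.6 and 78.6 CPM against 83.0, 74.6 and 85.0 CPM and was not called (0.00 ± 0.05, adjusted p = 0.993). The RALY libraries of the groups overlapped, and the log2 ratio of HNRNPC to RALY differed by -0.56 ± 0.10. RALY-AS1, on the opposite strand, measured 7.58, 7.68 and 7.33 CPM in DIS3-sh1 and 3.32, 3.53 and 4.45 CPM in Scramble (1.00 ± 0.14, adjusted p = 1.10e-07). Whether counting was by strand is not given, so reads of RALY-AS1 and of RALY cannot be told apart with certainty.

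In the U family, whose proteins bind RNA, chromatin scaffolds and sites of DNA damage, 2 of 3 genes fell. HNRNPU, the scaffold attachment factor and the gene with the most reads of the 33, measured 1087, 1108 and 1113 CPM in DIS3-sh1 against 1613, 1605 and 1603 CPM in Scramble (log2 fold change -0.54 ± 0.02, adjusted p = 2.91e-20). HNRNPUL1 fell by 0.19 ± 0.02, the smallest decrease called, with 453, 463 and 457 CPM against 520.2, 511 and 532 CPM. HNRNPUL2 measured 83.9, 88.8 and 87.9 CPM against 83.7, 82.2 and 84.1 CPM and was not called (0.06 ± 0.04, adjusted p = 0.194). With upper-quartile scaling it was called higher (0.14, adjusted p = 0.00292). HNRNPUL2 may share reads with a read-through row, HNRNPUL2-BSCL2, at 63.6 CPM in DIS3-sh1 and 65.9 CPM in Scramble, and with those added the log2 fold change was 0.01 ± 0.03.

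Both genes of the FET family, which bind RNA and act in transcription, passed the test, one of them barely. EWSR1 measured 244.5, 253 and 249 CPM in DIS3-sh1 against 337, 329 and 344 CPM in Scramble (log2 fold change -0.44 ± 0.03). TAF15 had the lowest level of the 33 genes, with 12.6, 19.2 and 17.0 CPM against 20.7, 20.8 and 17.6 CPM, and its groups overlapped (-0.28 ± 0.12, adjusted p = 0.0448). Whether reads of TAF15 were lost to another copy of its locus in the authors' reference could not be settled, so its level and rank are those of the reads counted on this row. Without DIS3-sh1 replicate 1, its lowest library, TAF15 had a log2 fold change of -0.12 and an adjusted p of 0.217. It also lost its call without Scramble replicate 1 (adjusted p = 0.135), Scramble replicate 2 (0.154) or DIS3-sh1 replicate 3 (0.0779), with DESeq2 (0.188) and with upper-quartile scaling (0.141).

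Of the 4 remaining RNA-binding proteins, 3 fell. TARDBP, the gene of TDP-43, which binds UG repeats and represses cryptic exons, measured 125, 132 and 139 CPM in DIS3-sh1 against 252, 256 and 253 CPM in Scramble, a log2 fold change of -0.95 ± 0.03 (adjusted p = 2.44e-21). ELAVL1, or HuR, which stabilises mRNAs with AU-rich elements, measured 145, 145 and 143 CPM against 223, 228 and 229.7 CPM (-0.65 ± 0.03). MATR3, a nuclear matrix protein that binds pyrimidine tracts, measured 229, 251 and 252 CPM against 369, 388 and 373 CPM (-0.63 ± 0.03). Its second row, ENSG00000280987.4, has 75.1% of its windows in the first and measured 231 CPM in DIS3-sh1 and 361 CPM in Scramble, and the sum of both rows changed by -0.64 ± 0.03.

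KHDRBS1, the gene of the signalling-dependent splicing factor Sam68, was the last gene not called. It measured 393, 394 and 397 CPM in DIS3-sh1 against 403, 410 and 413 CPM in Scramble, and although the libraries did not overlap the difference was small (log2 fold change -0.05 ± 0.03, adjusted p = 0.0752). It was called lower with RLE scaling (adjusted p = 0.0295), with DESeq2 (0.050) and with small structural RNA, ribosomal and mitochondrial genes removed (0.0400), and it turned to 0.03 with upper-quartile scaling (0.295).

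Ratios between paralogs were compared for 10 pairs, which do not depend on the scaling of the libraries. In 9 of the 10 the ratios of the 2 groups did not overlap, and EWSR1 to TAF15 was the exception. How often the ratios of other gene pairs separate was not computed, so the count cannot be read as particular to paralogs. Taken singly, 34.2% of tested genes lay lower and 35.6% higher in DIS3-sh1 without overlap. The differences ran from -0.74 for PCBP1 to PCBP2 to 0.80 for HNRNPA1 to HNRNPA2B1, the latter without the reads counted on copies of HNRNPA1. With 3 libraries a group the smallest two-sided p of an exact permutation test is 0.10, which these 9 pairs reached (0.111 after Benjamini-Hochberg adjustment over the 10 pairs, exact permutation test), so none can pass 0.05.

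**Figure D4:**
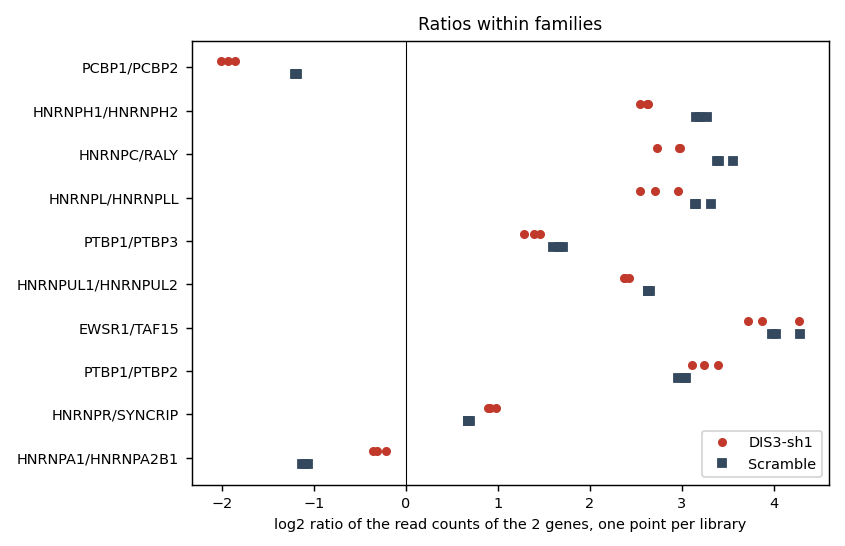
Log2 ratio of the read counts of 2 paralogs in each library (x axis), with DIS3-sh1 above Scramble in each row. The ratio of PCBP1 to PCBP2 lies further left in DIS3-sh1 (difference -0.74), and that of HNRNPA1 to HNRNPA2B1 further right (difference 0.80). Reads counted on copies of HNRNPA1 are left out.

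Levels between genes were compared per kilobase of merged exons, in CPM per kilobase. In Scramble, HNRNPAB was highest at 230 ± 3.06, followed by HNRNPK at 176 ± 0.96, HNRNPA2B1 at 149 ± 2.22, HNRNPA1 at 127 ± 2.40 and HNRNPC at 121 ± 0.69 CPM per kilobase (SD, n = 3). The lowest were TAF15 at 3.33, PTBP2 at 5.68 and HNRNPLL at 7.43 CPM per kilobase, with the limit given above for TAF15. Among tested coding genes 26 of the 33 stood in the highest 10% of levels, with a median percentile of 96.2. Of the 32 neighbours in the order, 10 did not differ beyond their range over the Scramble libraries, among them HNRNPF and PTBP1 (both 86.5 CPM per kilobase) and HNRNPL, HNRNPDL and PCBP2 (59.5, 59.5 and 59.0 CPM per kilobase). Merged exons overstate the length of genes with many annotated transcripts, HNRNPU foremost at 22512 bases, and so understate their level, and the level of HNRNPA1 may be understated if reads counted on its copies are its own.

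**Figure D5:**
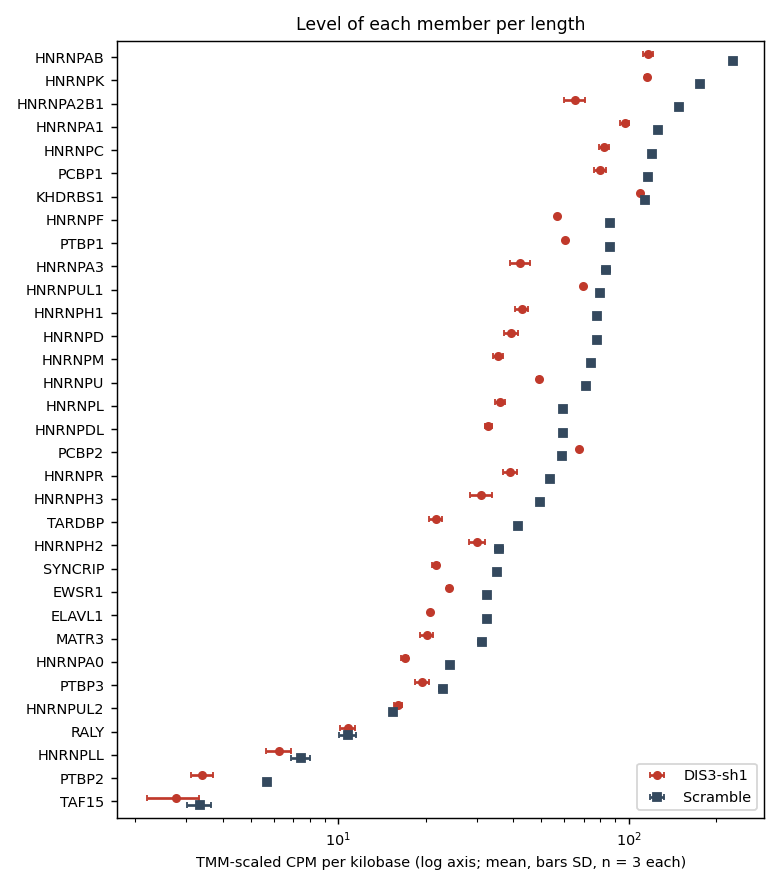
TMM-scaled CPM per kilobase of merged exons (log x axis, mean with SD of 3 libraries) for the 33 genes, in the order of their Scramble level, with DIS3-sh1 above Scramble in each row. HNRNPAB leads in Scramble at 230 CPM per kilobase and TAF15 is last at 3.33 from the reads counted on its row; whether others were lost to another copy is not settled.

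Genes related by function were counted from lists drawn up from general knowledge. For each list the shares to set beside it are those of all tested genes, 32.6% called lower and 34.5% higher. Among coding genes they are 38.7% and 36.2%. Of 27 tested genes of other hnRNP-like proteins, 18 fell and 7 rose, with a median of -0.39 beside 0.02 for all tested genes. The list holds the HNRNPA1 retrocopies HNRNPA1L2, not called, and HNRNPA1L3, which fell (-0.40 ± 0.03). They have 47.6% and 48.6% of windows in HNRNPA1, so their reads may be those of HNRNPA1. SFPQ, a paraspeckle and splicing protein (log2 fold change -1.33 ± 0.02), SAFB2, a scaffold attachment factor (-1.51 ± 0.04), and KHSRP, a KH domain protein of mRNA decay (-0.67 ± 0.02), were among those that fell with the smallest p. The 7 that rose include CIRBP, the cold-inducible RNA-binding protein, at 136 CPM in DIS3-sh1 and 72.7 CPM in Scramble (0.91 ± 0.04), and MSI1, a translational regulator of progenitor cells (0.76 ± 0.05). Also among them were the poly(C) binders PCBP4 (1.24 ± 0.14) and PCBP3 (1.04 ± 0.19), both at under 10 CPM, ELAVL2 (0.61 ± 0.07), KHDRBS3 (0.19 ± 0.05) and YBX3 (0.17 ± 0.03), so paralogs of PCBP1, ELAVL1 and KHDRBS1 were higher.

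Of 28 tested splicing regulators that bind their own sequence motifs, 18 fell and 7 rose, with a median of -0.35 beside 0.02 for all tested genes. U2AF1 (-1.16 ± 0.05) and U2AF2 (-0.84 ± 0.03), the subunits that recognise 3' splice sites, MBNL1, which binds CUG-like repeats (-1.06 ± 0.04), and RBM39 (-0.64 ± 0.03) fell. MBNL2, the paralog of MBNL1, rose by a log2 fold change of 0.56 ± 0.06, at 42.4 CPM in DIS3-sh1 and 28.8 CPM in Scramble. The other genes that rose were RBM20 (0.41), TIA1 (0.38), CELF2 (0.28), RBM5 (0.17), and at low levels CELF5 (1.45) and NOVA2 (0.70).

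Of 18 genes whose products modify hnRNPs or carry them into the nucleus, 13 fell and 1 rose, with a median of -0.39 beside 0.02 for all tested genes. WDR77, the partner of the arginine methyltransferase PRMT5 (-1.41 ± 0.04), SRPK1, a kinase of splicing factors (-0.86 ± 0.03), and TNPO1, the transportin that imports HNRNPA1 and its relatives (-0.62 ± 0.03), fell. SUMO2 was the gene that rose, at 218 CPM in DIS3-sh1 and 180 CPM in Scramble (0.28 ± 0.03).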

How the data were processed

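Total RNA of 293T cells was depleted of ribosomal RNA with RiboMinus and made into stranded Illumina TruSeq libraries, per the labels. The authors deposited expected counts per gene, in part fractions. The submitters' processing notes name hg38, featureCounts 1.5.1, HISAT2 2.1.0, Bowtie2 2.3.5 and SAMtools. Their settings, the annotation and the use of strand are not given in the sources used here. Fractional values mean that reads of similar or overlapping genes may have been split. The 9 samples form 3 labelled groups, but 3 columns have names that match no label and were not used, so the model written for 3 groups was fitted to 6 libraries. The design text calls the replicates biological but does not say that they were separate cultures, and p-values measure only the spread between libraries.

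Counts were rounded and tested with edgeR 4.0.16 (R 4.3.3): TMM, filterByExpr by group, robust quasi-likelihood F-test, two-sided, Benjamini-Hochberg over 19591 genes, threshold 0.05. The fit was also run on simulated data with few changed genes, as many up as down. In the real data 67% of tested genes were called, so that run does not check the error rate here. SE is the absolute log2 fold change over the square root of F. Alternatives used limma 3.58.1 and DESeq2 1.42.0. CPM are TMM-scaled. Levels per length are CPM per kilobase of GENCODE 29 merged exons, in place of the planned TPM, whose scale between the groups moved with the rows included. Shared sequence is the share of 50-base windows in GENCODE 29 transcripts. Rows on the same strand with at least 20% of windows shared were listed. Promoters are from RefSeq, GRCh38.p14. The genes and lists were chosen with earlier results of these data known. Every one of the 33 genes is named, and from each list up to 4 with the smallest p and at least 5 CPM, of which 2 are not reported here. The genes of the lists that rose were named after their values were seen.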

Additional observations from a re-analysis of the deposited data

How the results depend on the processing

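Over 17 alternatives for each of 33 genes, 543 of 561 log2 fold changes kept their direction and side of the threshold, and 29 genes kept both throughout. The other 4 were KHDRBS1, HNRNPUL2, TAF15 and RALY. The number of genes called lower was between 28 and 30, and that called higher was 1, except 2 with upper-quartile scaling, which added HNRNPUL2. The value of RALY, 0.0005 with TMM, turned to -0.0122 with RLE scaling and with DESeq2, -0.0056 without a filter, -0.0066 with small structural RNA, ribosomal and mitochondrial genes removed and -0.00013 with copies added, and ran from -0.0586 to 0.0308 when single libraries were left out, the negative values coming without Scramble replicate 2 and DIS3-sh1 replicate 1. KHDRBS1 turned to 0.0298 with upper-quartile scaling. Among modifiers and carriers, 3 genes were called higher with upper-quartile scaling in place of 1, and 1 to 2 when single libraries were left out, with 2 without DIS3-sh1 replicate 1; the cause was not tested. The labels state no pairing of the libraries by replicate number. Deviations of same-numbered libraries correlated only weakly, at 0.04, 0.01 and 0.01, although each library correlated best with its own number. These values do not settle whether the libraries were paired. With the replicate block, 6397 genes were lower and 6769 higher over the whole table, and 29 and 1 of the 33. In TPM the median of tested genes was -0.30 over all annotated rows and 0.15 over nuclear coding rows, against 0.02 with TMM. On these scales the groups did not overlap for 33 genes lower and 0 higher, and for 24 lower and 4 higher (HNRNPUL2, KHDRBS1, PCBP2 and RALY), with medians of -0.86 and -0.38. Results planned for DIS3-sh2 were not run. The fit of only the groups compared is the fit reported. Adding both MATR3 rows, adding same-strand rows and leaving counts unrounded were chosen after seeing the data.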

Other observations

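Of the tested RNAs named for their place beside these genes, RALY-AS1, given above, and PCBP2-OT1 were called higher. PCBP1-AS1 and HNRNPD-DT were not called, and none was called lower. PCBP2-OT1, which overlaps PCBP2, measured 17.5, 15.8 and 16.0 CPM in DIS3-sh1 and 12.7, 13.1 and 12.8 CPM in Scramble (log2 fold change 0.35 ± 0.08, adjusted p = 0.000485), and 8.87% of its windows are in PCBP2. PCBP1-AS1 averaged 29.2 CPM in DIS3-sh1 and 28.9 CPM in Scramble and was not called (0.01 ± 0.06, adjusted p = 0.851). HNRNPD-DT, the divergent transcript at the start of HNRNPD, averaged 1.23 CPM in DIS3-sh1 and 0.79 CPM in Scramble. It was not called (0.64 ± 0.32, adjusted p = 0.0723), with the groups overlapping.

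Copies of these genes with little sequence in common with their parent are less open to shared reads. HNRNPA1P16, with 1.55% of its windows in HNRNPA1, was higher in DIS3-sh1, at 3.35 CPM on average against 2.19 CPM in Scramble, with no overlap (0.61 ± 0.20, adjusted p = 0.0074). HNRNPH1P1, with no window in HNRNPH1, averaged 1.38 CPM in DIS3-sh1 and 1.02 CPM in Scramble and was not called (0.43 ± 0.28, adjusted p = 0.172). HNRNPCP1, with 2.23% of windows in HNRNPC, averaged 0.45 CPM in DIS3-sh1 and 0.78 CPM in Scramble and was not called (-0.78 ± 0.39). PCBP2P1, with 0.43% of windows in PCBP2, was not called either (-0.33 ± 0.40). Among these copies with little shared sequence only HNRNPA1P16 was called. The others averaged at most 1.38 CPM, so no common direction can be read from them. HNRNPA3P5, with 33.8% of windows in HNRNPA3, fell with its parent (-1.14 ± 0.12). These RNAs were picked with their values in view.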
